A study of Mus musculus with 24 samples.

Results

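Imprinted genes are transcribed mainly from the copy inherited from a single parent. The parental copies carry the same sequence but differ in DNA methylation at control regions, which is laid down in the egg or the sperm and maintained in the embryo, among others by the zinc finger protein ZFP57 and its partner TRIM28. The genes lie in clusters, called domains, that often hold a long non-coding RNA from 1 parental copy and protein-coding genes from the other, and many of them act on growth, on the placenta or on neural development. Loss of methylation and over-methylation at these control regions are both known in cultured embryonic stem cells (ESCs), and TET enzymes, which oxidise 5-methylcytosine, take part in erasing such marks in germ cells.

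The 35 imprinted genes described here were chosen by name as known mouse imprinted genes, and all 35 were among the 51912 genes of the count tables. By textbook assignment, 20 are expressed from the paternal copy, 13 from the maternal copy and 2 in a way that depends on the isoform. RNA-Seq was available for 9 libraries, 3 in each of 3 groups. ESC libraries came from wild type cells of strain C57BL/6 X 129S5. Neuronal progenitor (NP) libraries came from wild type cells of the same strain label, obtained by differentiating ESCs as aggregates with retinoic acid. TET TKO libraries came from ESCs with genotype TET1/2/3 triple knockout and strain C57BL/6 X 129/sv. The knockout is therefore joined to another strain background and another line, and what each contributes cannot be told apart. The ESC libraries held 20570050, 21602345 and 23976914 counts, the NP libraries 20519702, 22132988 and 21214374, and the TET TKO libraries 84377108, 80704741 and 93210102. The TET TKO libraries were deeper than every other library, so depth also goes with that group. Reads were not assigned to parental copies, so every level below is the sum over both.

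Levels are given as RPKM (reads per kilobase of exon, scaled to library size), and libraries are listed in the order of replicates 1, 2 and 3. Comparing levels between genes is approximate. The length covers all exon bases of a gene, also those shared with another gene, whose reads may be missing. A gene was tested where it reached 1 RPKM in at least 1 library of a comparison, and it was called where edgeR's quasi-likelihood test gave a Benjamini-Hochberg adjusted p under 0.001 over all genes tested together with a fold change of at least 3. Fold changes are on the log2 scale with their standard error (SE) over 3 against 3 libraries, and the p-values measure only the spread between libraries.

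The targeted genes were examined first. Tet1 stood at 66.0, 60.8 and 68.5 RPKM in the ESC libraries and at 13.2, 16.1 and 11.3 in the TET TKO libraries. Tet2 stood at 20.5, 20.3 and 16.1 RPKM in ESCs and at 2.42, 2.70 and 2.32 in TET TKO cells. Tet3 was low in both, at 0.746, 0.631 and 0.770 RPKM in ESCs and at 0.561, 0.617 and 0.474 in TET TKO cells. All 3 genes were thus lower in every library labelled TET TKO than in every ESC library, but reads from each remained. Tet1 fell by 2.39 ± 0.14 on the log2 scale (adjusted p = 6.93e-05) and Tet2 fell by 3.06 ± 0.13 (adjusted p = 1.77e-05), whereas Tet3 was below the limit for testing. Counts summed over all exons do not show where a deletion lies.

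The cell type labels were then compared with marker genes. In NPs all 8 pluripotency markers fell, against 9.99% of all genes, and all 8 neural progenitor markers rose, against 12.4%, although 7 of the latter (all but Nes) were below 1 RPKM in every ESC library and were tested only through NPs. Of the pluripotency markers, Esrrb was below 1 RPKM in every NP library and was tested only through ESCs. The summed level of the neural progenitor markers was 5.60, 5.32 and 4.64 RPKM in the ESC libraries and 253, 150 and 201 in the NP libraries, with Nes, a neural filament gene, the most abundant at a mean of 74.2. Pluripotency markers summed to 2435, 2519 and 2487 RPKM in ESCs and 73.9, 75.9 and 58.2 in NPs, where Sox2, which neural progenitors also express, was the most abundant. Of 5 neuron markers tested in NPs 3 rose, against 12.4% of all genes, and 1 fell, against 9.99%. Of 3 markers of 2-cell-like cells 2 fell, against 9.99% of all genes. Dcx and Map2 among the neuron markers were tested only through NPs. The markers of 2-cell-like cells that fell, Zscan4c and Usp17la, were below 1 RPKM in every NP library. They were tested only through ESCs and had to lie lower. The 6 neuron markers summed to 123, 121 and 136 RPKM in ESCs, 183, 76.9 and 147 in NPs and 70.4, 91.85 and 47.8 in TET TKO cells, so that NP library 2 lay below ESCs. The 4 markers of 2-cell-like cells, a rare state in ESC cultures, summed to 36.7, 35.4 and 10.1 RPKM in ESCs, to 0.186, 1.89 and 0.689 in NPs and to 3.09, 5.86 and 1.19 in TET TKO cells. ESC library 3, the lowest for this sum, was also the lowest for H19, Igf2 and Peg10. It was the highest for 9 of the 23 imprinted genes at 1 RPKM or more in each ESC library. The most abundant of these markers was Zscan4d, at a mean of 16.7 RPKM in ESCs, and none of the 4 was at 0 in all libraries of a group. Each TET TKO library was below ESCs for 2 of these 4, Zscan4c and Zscan4d, against 19.7% of all genes. Their log2 fold changes were -4.09 ± 0.69 (adjusted p = 0.00423) and -3.88 ± 0.82 (adjusted p = 0.0101). Zscan4c was below 1 RPKM in every TET TKO library, was tested only through ESCs and had to lie lower. Of the 4 markers of 2-cell-like cells edgeR called none, and 3 had an unadjusted p under 0.05, against 45% of all genes. The part of such cells in the levels of imprinted genes was not tested. Among TET TKO libraries the pluripotency markers summed to 2317, 2191 and 3049 RPKM, of which Dppa5a made up a mean of 1508 against 956 in ESCs. Of the 8 markers 1, Zfp42, fell, against 1.31% of all genes. A log2 fold change below 0 was found for 7, and for 6907 of the 14050 genes tested. In every TET TKO library 5 were below ESCs, against 19.7% of all genes. An adjusted p under 0.05 was found for 5, against 33.6% of all genes, of which 4 were lower and Dppa5a was higher. The neural progenitor markers summed to 12.7, 19.1 and 8.89 RPKM in TET TKO cells, above ESCs in each library. Neither of the 2 tested was called by edgeR. Both had an unadjusted p under 0.05, against 45% of all genes, but Sox1 was below 1 RPKM in every ESC library and was tested only through TET TKO cells. The neuron markers summed to less than in ESCs in each TET TKO library. Of 3 tested edgeR called none, while 2 (Tubb3 and Stmn2) were below ESCs in every library, against 19.7% of all genes, and 1 (Elavl3) was above, against 32%.

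At least 1 RPKM in every library of the group was reached by 23 of the 35 imprinted genes among ESCs, by 29 among NPs and by 23 among TET TKO cells. Their median over the group means was 3.67 RPKM for ESCs, 8.63 for NPs and 4.01 for TET TKO cells. In ESCs the most abundant was Snrpn, which encodes a spliceosomal protein, at 51.6 RPKM, next to Impact, a regulator of translation, at 51.2, and Peg10, a retrotransposon-derived gene needed in the placenta, at 47.8. The ranges of these 3 genes over the ESC libraries overlapped. H19, a maternally expressed long non-coding RNA, led in NPs at a mean of 567 RPKM and in TET TKO cells at 395, where it ranked 23rd and 40th of all genes in the tables. It ranked 4424th in ESCs. Kcnq1 and Kcnq1ot1 were below 1 RPKM in all 9 libraries, as was Rtl1. No imprinted gene was at 0 counts in all libraries of a group.

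**Figure D1:**
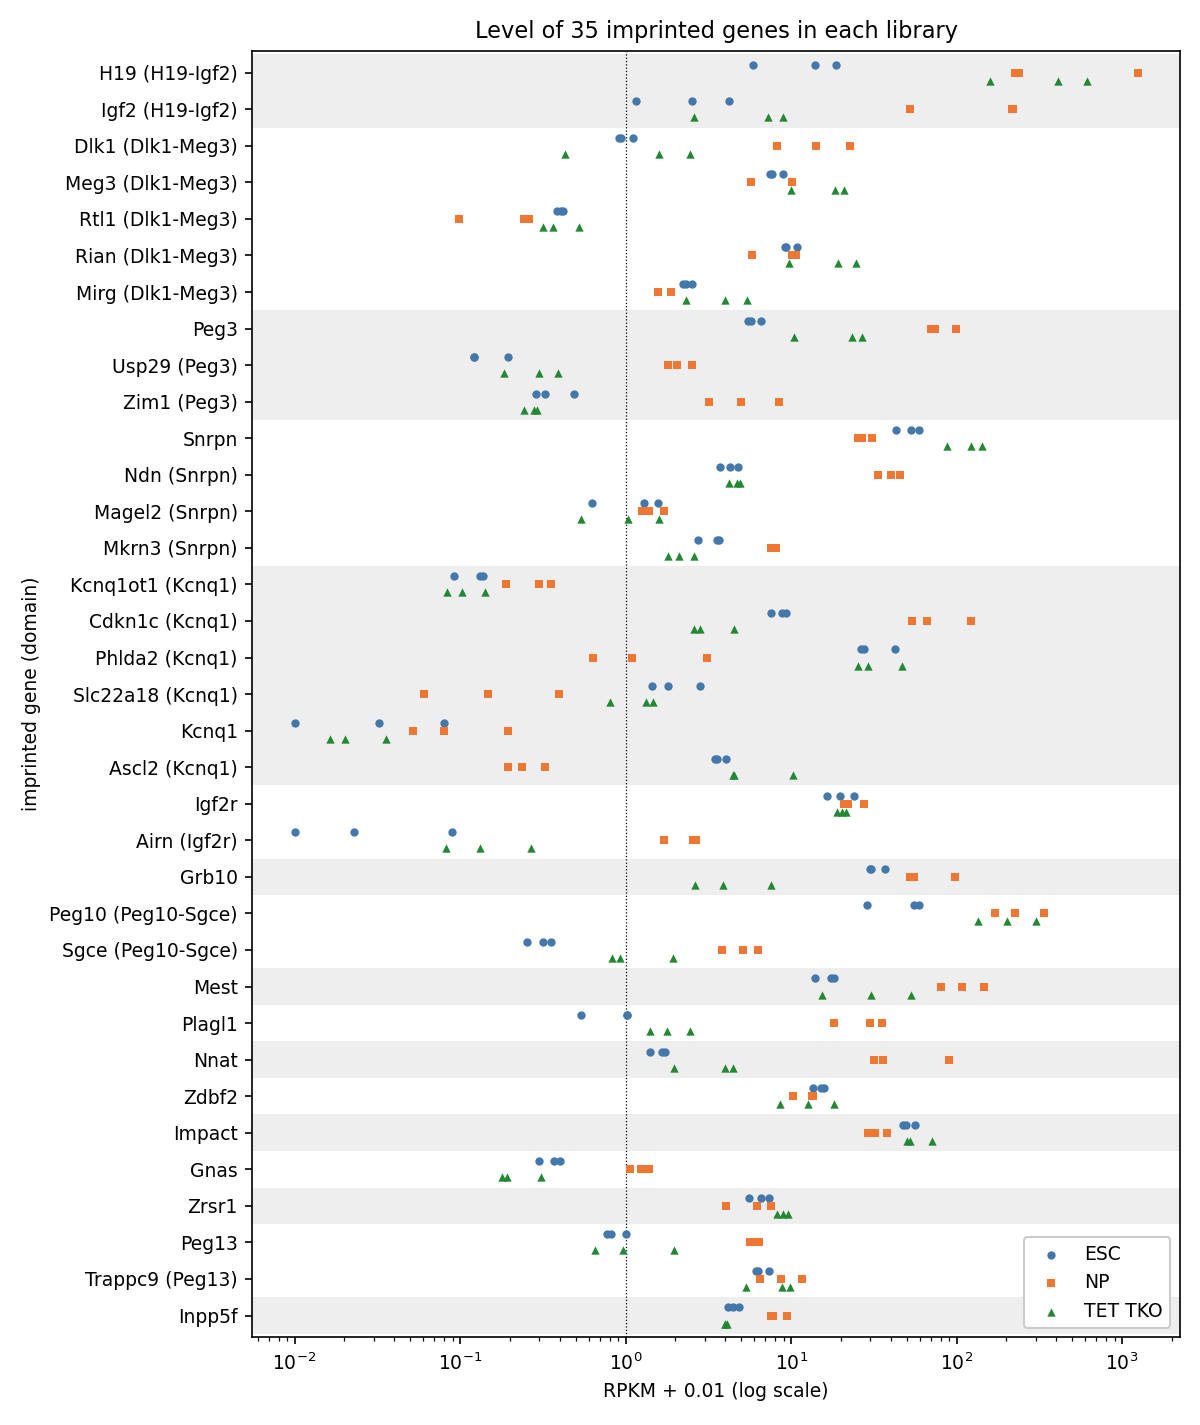
Level of each of the 35 imprinted genes in each library, as RPKM + 0.01 on a log axis, with genes ordered by domain; circles are ESC, squares NP and triangles TET TKO libraries, and the dotted line marks 1 RPKM. In NPs many genes lie to the right of ESCs, such as H19, Igf2 and Nnat, while Phlda2, Slc22a18 and Ascl2 lie to the left; in TET TKO cells H19 and Grb10 stand farthest from ESCs.

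All 35 genes together took 0.212, 0.216 and 0.199% of the counts in the ESC libraries. In the NP libraries they took 0.763, 1.19 and 0.640%, and in the TET TKO libraries 0.309, 0.508 and 0.421%. Both other groups were above ESCs in each library. H19 alone made up 0.323% of the counts in NP library 2.

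NPs were compared with the ESCs they are derived from. Of the 32 imprinted genes tested, 18 were called, against 22.4% of the 15020 genes tested. Of these, 16 rose, against 12.4% of all genes, and 2 fell, against 9.99%. The genes that rose were H19, Igf2, Dlk1, Peg3, Usp29, Zim1, Ndn, Cdkn1c, Airn, Peg10, Sgce, Mest, Plagl1, Nnat, Gnas and Peg13, and those that fell were Phlda2 and Ascl2. The median log2 fold change was 1.52 over the imprinted genes and 0.03 over all genes tested. Among the paternally expressed genes 12 of 18 tested rose and the other 6 were not called, with a median of 3.00. Among the maternally expressed genes 3 of 12 rose and 2 fell, with a median of 0.16. Of the 2 genes with isoform-dependent imprinting, Gnas rose and Inpp5f was not called. Of the 16 that rose, 6 (Airn, Usp29, Zim1, Sgce, Gnas and Peg13) were below 1 RPKM in all ESC libraries and reached the level for testing only through NPs. Ascl2, which fell, and Slc22a18, which was not called, reached it only through ESCs. These had to differ to be tested, so the counts and medians describe the genes tested and are no evidence about the list.

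The libraries labelled TET TKO were compared with ESCs in the same way. None of the 28 imprinted genes tested was called by edgeR's quasi-likelihood test, against 2.15% of the 14050 genes tested, with 0 higher (0.84% of all genes) and 0 lower (1.31%). At an unadjusted p under 0.05 there were 14 imprinted genes, against 45% of all genes, and at an adjusted p under 0.05 with no fold limit there were 10, against 33.6%. A fold change of at least 3, with no regard to the test, was reached by 5 of the 28, against 9.49%. These 5 were H19, Peg10, Sgce and Peg3, which were higher, and Grb10, which was lower, and DESeq2 called these 5, against 6.62% of all genes. Sgce was below 1 RPKM in all ESC libraries and was tested only through its TET TKO libraries, as was Peg13. In 10 of the 28 genes all TET TKO libraries lay above all ESC libraries, against 32% of all genes, and in 4 genes all lay below, against 19.7%. The shares by range and by p alone are near those of all genes. The median log2 fold change was 0.41 over the imprinted genes and 0.01 over all genes tested. The number of all genes called, 302, was 50, 58 and 70 when ESC library 1, 2 or 3 was left out, and 92 and 165 without TET TKO library 1 or 2. This comparison shares its ESC libraries with the one above, so the values of each stand side by side below and no overlap between them was computed.

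**Figure D2:**
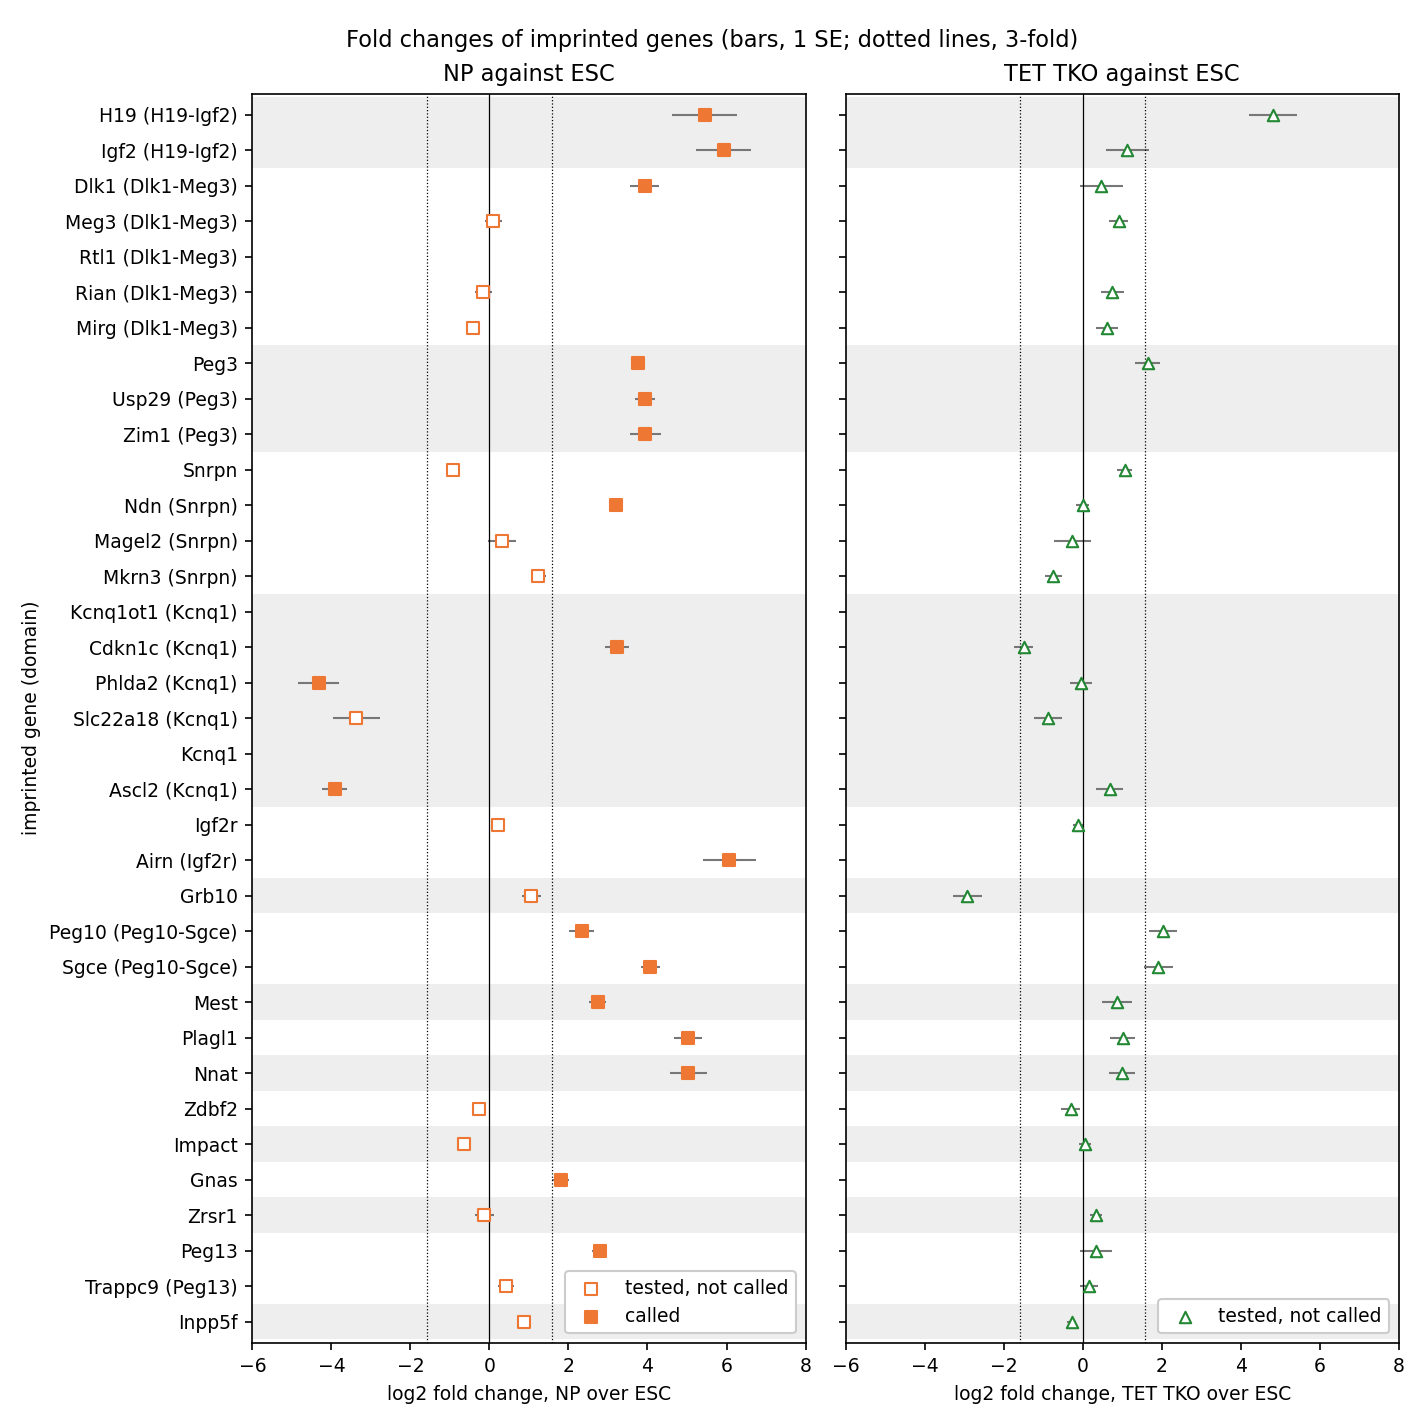
Log2 fold change of each imprinted gene tested, NP over ESC on the left and TET TKO over ESC on the right, with bars of 1 SE; filled symbols are called, open symbols tested and not called, and genes without a symbol were below 1 RPKM in all libraries of that comparison. On the left 16 filled symbols lie above 3-fold (dotted line) and 2 below; on the right none is filled, and H19 at 4.83 and Grb10 at -2.92 lie farthest from 0.

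In the H19-Igf2 domain on chromosome 7, a methylation-sensitive CTCF boundary directs shared enhancers to H19 on the maternal copy and to Igf2, a fetal growth factor, on the paternal copy. H19 (ENSMUSG00000000031, minus strand of chr7:142575529-142578143 in GRCm38) stood at 14.0, 18.6 and 5.92 RPKM in the ESC libraries, at 226, 1240.0 and 237 in the NP libraries, and at 160, 412 and 614 in the TET TKO libraries. Every library of either group was far above the highest ESC library, and NP library 2 was the highest of all. The mean was 12.8 ± 6.42 RPKM (SD, n = 3) in ESCs and 567 ± 582 (SD, n = 3) in NPs. H19 rose by 5.44 ± 0.81 in NPs (adjusted p = 0.000472), and the call was lost when any ESC library was left out (adjusted p of 0.00256, 0.00156 and 0.00297 without library 1, 2 and 3). Without NP library 2 the log2 fold change of H19 was 4.15. For TET TKO cells the log2 fold change of H19 was 4.83 ± 0.61 with an adjusted p of 0.00137, just past the limit of 0.001. With a block for replicate number edgeR called H19 there (adjusted p = 0.000599). Igf2 stood at 2.51, 4.21 and 1.14 RPKM in ESCs, at 215, 219 and 52.0 in NPs, and at 2.58, 8.93 and 7.24 in TET TKO cells. Its NP libraries were all above ESCs, while the TET TKO library 1 lay within the ESC range. Igf2 rose by 5.93 ± 0.69 in NPs (adjusted p = 0.000122), and in TET TKO cells its log2 fold change was 1.13 ± 0.55 (adjusted p = 0.147).

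The pair was also compared within each library. The ratio of H19 to Igf2 in RPKM was 5.56, 4.41 and 5.17 in ESCs, 1.05, 5.65 and 4.55 in NPs, and 62.0, 46.1 and 84.8 in TET TKO cells. Thus the ratio in each TET TKO library exceeded that in every other library, while NPs overlapped ESCs and NP library 1 had nearly as much Igf2 as H19. In bulk samples, fewer cells that express a gene and less RNA per cell cannot be told apart.

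Markers of mesoderm and mesenchyme, tissues in which H19 and Igf2 are known to be abundant, are given beside these genes. The 10 markers summed to 5.05, 5.89 and 4.91 RPKM in ESCs, 31.4, 58.4 and 11.2 in NPs and 7.18, 5.61 and 5.09 in TET TKO cells. Among NPs the sum was highest in library 2 and lowest in library 3, while H19 was highest in library 2 and near equal in libraries 1 and 3, and Igf2 was near equal in libraries 1 and 2 and lowest in library 3. In NPs 3 of the 7 markers tested rose and 1 fell, against 12.4% and 9.99% of all genes. The 3 that rose, Col3a1, Meox1 and Foxf1, were below 1 RPKM in every ESC library and were tested only through NPs. Myl4, which fell, was below 1 RPKM in every NP library and was tested only through ESCs. None of the 10 was at 0 in all NP libraries, and Meox1 was the most abundant at a mean of 12.5 RPKM. Extraembryonic endoderm, which also expresses H19, was followed through 10 markers that summed to 20.3, 20.97 and 23.4 RPKM in ESCs, 52.6, 43.6 and 52.0 in NPs and 15.2, 11.9 and 14.7 in TET TKO cells. Of the 8 tested in NPs 4 rose, against 12.4% of all genes, and these (Gata6, Sox17, Foxa2 and Ttr) were again tested only through NPs. Lama1 was the most abundant at 23.4 RPKM, and none was at 0 in all libraries. The part of such cells in the levels of H19 and Igf2 was not tested.

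Trophoblast, a further tissue rich in H19, was followed through 8 markers. They summed to 19.4, 20.04 and 25.6 RPKM in ESCs, 18.1, 18 and 14.2 in NPs and 62.2, 58.6 and 109 in TET TKO cells, where library 3 was the highest for this sum and for H19, while library 1 was above library 2 for the sum and below it for H19. In NPs 2 of the 4 markers tested rose, against 12.4% of all genes, and 1 fell, against 9.99%. Gata3 rose by 4.08 ± 0.55 and Krt7 by 4.61 ± 0.28, both tested only through NPs, and Tfap2c fell by 3.73 ± 0.32. All 5 markers tested in TET TKO cells lay above the ESC libraries in each TET TKO library, against 32% of all genes, but 4 of them (Gata3, Krt7, Hand1 and Plac1) were below 1 RPKM in every ESC library and had to lie higher to be tested. Of the 5, 1 was called, against 0.84% of all genes that rose. It was Hand1, a trophoblast and heart factor, at 6.08, 10.5 and 13.1 RPKM against 0.282, 0.802 and 0.428 in ESCs. Tfap2c, also a germ cell and pluripotency factor, was the most abundant at a mean of 57.1 RPKM, while Tpbpa, a marker of the spongiotrophoblast, was at 0 in every ESC and NP library and in TET TKO library 2. The trophoblast factors Cdx2 and Elf5 reached at most 0.384 and 0.131 RPKM in TET TKO cells. Their part in the level of H19 was not tested.

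**Figure D3:**
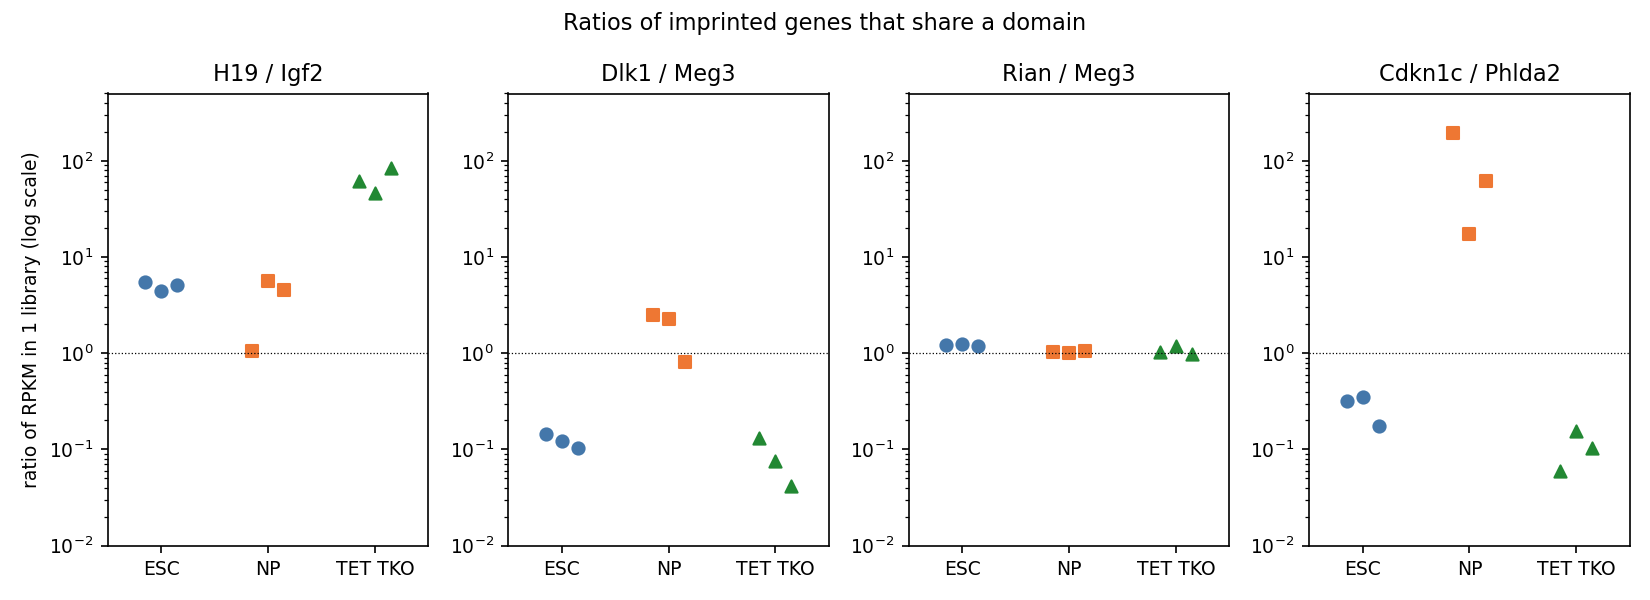
Ratio of the RPKM of 2 imprinted genes of the same domain in each library, on a log axis, with the 3 libraries of each group side by side; the dotted line marks a ratio of 1. H19 over Igf2 is highest in the TET TKO libraries (46.1 to 84.8), Dlk1 over Meg3 and Cdkn1c over Phlda2 are highest in NPs, and Rian over Meg3 stays between 0.971 and 1.26 in all 9 libraries.

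The Dlk1-Meg3 domain on chromosome 12 holds Dlk1, a membrane protein of the Notch ligand family expressed from the paternal copy, and a series of maternally expressed non-coding RNAs, Meg3, Rian and Mirg, that is known to be silenced in some pluripotent lines. Dlk1 stood at 1.10, 0.898 and 0.935 RPKM in the ESC libraries, at 14.2, 22.7 and 8.19 in NPs, and at 2.45, 1.58 and 0.420 in TET TKO cells. All NP libraries were above ESCs, and the TET TKO libraries fell on either side of them. Dlk1 rose by 3.92 ± 0.36 in NPs (adjusted p = 3.20e-05) and had a log2 fold change of 0.48 ± 0.54 in TET TKO cells (adjusted p = 0.528).

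The maternally expressed RNAs of this domain were not called in either comparison. Rian, the host of many small nucleolar RNAs and the most abundant member of the domain in ESCs, stood at 9.20, 9.34 and 10.8 RPKM in ESCs, at 5.80, 10.1 and 10.7 in NPs and at 19.1, 24.7 and 9.75 in TET TKO cells. Meg3 stood at 7.63, 7.42 and 8.96 RPKM in ESCs, at 5.71, 10.1 and 10.1 in NPs and at 18.4, 20.8 and 10.04 in TET TKO cells. All 3 groups thus express these RNAs, and TET TKO library 3 lies near ESCs for each. The log2 fold change in TET TKO cells was 0.91 ± 0.25 for Meg3 (adjusted p = 0.0248), 0.75 ± 0.29 for Rian (adjusted p = 0.0841) and 0.61 ± 0.28 for Mirg (adjusted p = 0.132), all short of 3-fold. In NPs the same values were 0.10 ± 0.22 for Meg3, -0.15 ± 0.22 for Rian and -0.43 ± 0.17 for Mirg. The ratio of Dlk1 to Meg3 was 0.144, 0.121 and 0.104 in ESCs, 2.49, 2.25 and 0.811 in NPs and 0.133, 0.0759 and 0.0418 in TET TKO cells, so that Dlk1 exceeded Meg3 only in NP libraries 1 and 2. Rtl1, a retrotransposon-derived gene read against the antisense RNAs, reached at most 0.515 RPKM in any library and was not tested.

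The stretches before the starts of Dlk1 and Meg3 are shown because Dlk1 rose in NPs while Meg3 of the same domain was not called. They are printed from RefSeq promoter windows (GRCm38.p6), outside every exon in the count tables and in the direction of transcription, Dlk1 at chr12:109452573-109452822 and Meg3 at chr12:109540746-109540995, both on the plus strand and upstream of the gene. Capitals mark TGCCGC, the hexamer ZFP57 binds when its CpG is methylated, in either orientation (GCGGCA on the other strand). The Dlk1 stretch of 250 bases has 8 CpGs and no hexamer, and the Meg3 stretch of 250 bases has 10 CpGs and 1 hexamer. A match is a run of letters and no measure of binding.
Dlk1: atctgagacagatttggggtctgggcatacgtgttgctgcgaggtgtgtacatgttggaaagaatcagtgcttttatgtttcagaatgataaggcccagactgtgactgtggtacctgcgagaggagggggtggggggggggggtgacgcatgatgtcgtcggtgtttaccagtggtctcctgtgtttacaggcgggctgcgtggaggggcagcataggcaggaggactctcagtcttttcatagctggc
Meg3: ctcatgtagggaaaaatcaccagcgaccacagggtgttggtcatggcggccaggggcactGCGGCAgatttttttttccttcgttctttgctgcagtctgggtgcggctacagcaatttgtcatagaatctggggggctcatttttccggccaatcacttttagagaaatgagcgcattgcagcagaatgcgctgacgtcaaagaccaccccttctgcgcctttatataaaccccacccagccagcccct

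At the Peg3 domain at the other end of chromosome 7, Peg3, a zinc finger protein that acts in the placenta and in maternal behaviour, and Usp29, a deubiquitinase, are paternally expressed and start back to back, while Zim1, another zinc finger gene, is maternally expressed. Peg3 stood at 5.74, 6.56 and 5.46 RPKM in ESCs, at 70.0, 99.4 and 74.5 in NPs and at 10.4, 26.9 and 23.2 in TET TKO cells. Usp29 stood at 0.112, 0.111 and 0.184 RPKM in ESCs, at 2.05, 2.52 and 1.78 in NPs and at 0.174, 0.290 and 0.379 in TET TKO cells. Zim1 stood at 0.314, 0.475 and 0.277 RPKM in ESCs, at 4.99, 8.50 and 3.17 in NPs and at 0.234, 0.282 and 0.270 in TET TKO cells. The 3 genes were above ESCs in every NP library, and Peg3 was also above ESCs in every TET TKO library. In NPs Peg3 rose by 3.77 ± 0.17 (adjusted p = 1.06e-06), Usp29 by 3.94 ± 0.25 (adjusted p = 5.96e-06) and Zim1 by 3.95 ± 0.39 (adjusted p = 5.22e-05). For Peg3 the log2 fold change in TET TKO cells was 1.65 ± 0.32 with an adjusted p of 0.0069, which became 0.000604 without TET TKO library 1, and the other members were below the limit for testing. Thus genes of either parental copy rose in NPs, and whether their changes differ was not tested.

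The stretch shared by the starts of Peg3 and Usp29 is shown because both genes rose in NPs. It is the gap of 146 bases between their first exons, at chr7:6730432-6730577, printed on the minus strand as Peg3 reads. It has 5 CpGs and no hexamer.
Peg3: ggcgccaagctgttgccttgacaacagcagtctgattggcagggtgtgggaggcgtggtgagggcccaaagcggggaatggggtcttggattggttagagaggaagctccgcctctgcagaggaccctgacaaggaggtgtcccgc

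The Snrpn domain, also on chromosome 7, is the region of Prader-Willi and Angelman syndromes, and its 4 imprinted genes here are all paternally expressed. Snrpn itself stood at 52.9, 59.1 and 42.9 RPKM in ESCs, at 25.2, 26.9 and 30.6 in NPs and at 122, 142 and 88.0 in TET TKO cells. Ndn, a growth suppressor of neurons, stood at 4.74, 4.28 and 3.69 RPKM in ESCs, at 33.4, 45.7 and 40.02 in NPs and at 4.68, 4.21 and 4.92 in TET TKO cells. Snrpn was therefore below ESCs in every NP library and above them in every TET TKO library, while Ndn was above ESCs in NPs and within or just over the ESC range in TET TKO cells. Ndn rose by 3.21 ± 0.17 in NPs (adjusted p = 2.04e-06), and in TET TKO cells its log2 fold change was near 0 (adjusted p = 0.994). The log2 fold change of Snrpn was -0.92 ± 0.15 in NPs (adjusted p = 0.000824) and 1.06 ± 0.19 in TET TKO cells (adjusted p = 0.00553), neither reaching 3-fold. Mkrn3, a ubiquitin ligase of puberty timing, had log2 fold changes of 1.24 ± 0.18 in NPs and -0.74 ± 0.22 in TET TKO cells, and Magel2, a partner of ubiquitin ligases, lay between 0.531 and 1.71 RPKM in all libraries and was not called. Of the exon bases of Snrpn 34.1% also lie in exons of other genes, most of them in Gm38393 on the same strand, where a read cannot be assigned to either.

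In the Kcnq1 domain, a paternally expressed antisense RNA, Kcnq1ot1, is known to silence neighbours that are then maternally expressed. Cdkn1c, an inhibitor of cyclin-dependent kinases, stood at 8.78, 9.29 and 7.52 RPKM in ESCs, at 122, 53.5 and 65.9 in NPs and at 2.81, 4.49 and 2.59 in TET TKO cells. Phlda2, a brake on placental growth, stood at 27.6, 26.3 and 42.4 RPKM in ESCs, at 0.628, 3.08 and 1.08 in NPs and at 47.0, 29.1 and 25.2 in TET TKO cells. Ascl2, a trophoblast transcription factor, stood at 3.53, 3.47 and 4.01 RPKM in ESCs, at 0.318, 0.228 and 0.186 in NPs and at 4.51, 10.3 and 4.46 in TET TKO cells. So in NPs Cdkn1c lay above ESCs and Phlda2 and Ascl2 below them, with no overlap. Cdkn1c rose by 3.23 ± 0.31 (adjusted p = 3.98e-05), Phlda2 fell by 4.33 ± 0.51 (adjusted p = 0.000131, and 0.00105 without NP library 3) and Ascl2 fell by 3.91 ± 0.32 (adjusted p = 1.75e-05). The fall of Phlda2 was 5.24 without NP library 2. Slc22a18, a membrane transporter next to Phlda2, stood at 1.80, 1.43 and 2.83 RPKM in ESCs and at 0.138, 0.388 and 0.0508 in NPs. All its NP libraries were below ESCs. Its log2 fold change of -3.37 ± 0.60 missed the limit with an adjusted p of 0.00124 and was -4.42 with an adjusted p of 0.000434 without NP library 2, and DESeq2 called it. Slc22a18 had 5, 16 and 2 counts in the NP libraries, was tested only through ESCs and had to lie lower. Each TET TKO library was below ESCs for Cdkn1c, with a log2 fold change of -1.49 ± 0.24 (adjusted p = 0.00371), while the values for Phlda2, Ascl2 and Slc22a18 were -0.05 ± 0.27, 0.68 ± 0.35 and -0.89 ± 0.36. Kcnq1ot1 was at 0.0728 to 0.344 RPKM over all libraries and Kcnq1, a potassium channel, at 0 to 0.183, and neither was tested.

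The Igf2r domain of chromosome 17 pairs Igf2r, a receptor that clears IGF2, with Airn, the antisense RNA that silences it on the paternal copy outside the nervous system. Igf2r stood at 19.7, 16.6 and 24 RPKM in ESCs, at 27.6, 22.1 and 20.8 in NPs and at 18.8, 20.3 and 21.5 in TET TKO cells, with all groups overlapping. Airn had 0, 1 and 7 counts in the ESC libraries, that is 0 to 0.0795 RPKM, and stood at 1.69, 2.56 and 2.65 RPKM in NPs and at 0.0724, 0.121 and 0.259 in TET TKO cells. Airn thus passed from near absence to above 1 RPKM in every NP library. It rose by 6.07 ± 0.67 in NPs (adjusted p = 8.71e-05), a size that rests on 8 ESC reads and was 8.14 without ESC library 3, whereas Igf2r had a log2 fold change of 0.21 ± 0.16 (adjusted p = 0.279). Airn was too low to be tested in TET TKO cells, where the value for Igf2r was -0.11 ± 0.14 (adjusted p = 0.575).

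Grb10 on chromosome 11, an adaptor that restrains insulin and growth factor signalling, is read from the maternal copy in most tissues and from the paternal copy in neurons. Grb10 (ENSMUSG00000020176) stood at 30.2, 30.4 and 36.9 RPKM in ESCs, at 97.8, 55.3 and 52.0 in NPs and at 7.56, 3.87 and 2.62 in TET TKO cells. The 3 groups did not overlap, with NPs highest and TET TKO cells lowest. The log2 fold change in TET TKO cells was -2.92 ± 0.36 with an adjusted p of 0.00129, just past the limit, and -3.44 with an adjusted p of 0.000627 without TET TKO library 1. Grb10 was called by edgeR with a block for replicate number (adjusted p = 0.000272) and with all 3 groups in 1 fit (adjusted p = 0.000496). In NPs its log2 fold change was 1.06 ± 0.23 (adjusted p = 0.00412). Beside it, Cobl, an actin nucleator, was called lower in both comparisons, at 54.9, 57.5 and 51.9 RPKM in ESCs, 1.80, 0.899 and 1.39 in NPs and 20.2, 17.3 and 21.2 in TET TKO cells.

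Peg10 and Sgce start back to back on chromosome 6 and are paternally expressed. Peg10 stood at 55.1, 59.6 and 28.7 RPKM in ESCs, at 224, 338 and 172 in NPs and at 134, 301 and 202 in TET TKO cells. Sgce, a sarcoglycan mutated in myoclonus dystonia, stood at 0.345, 0.306 and 0.245 RPKM in ESCs, at 5.13, 6.29 and 3.82 in NPs and at 0.919, 0.818 and 1.93 in TET TKO cells. Both genes were above ESCs in every library of the other groups. Peg10 rose by 2.33 ± 0.33 in NPs (adjusted p = 0.000329, but 0.00133 without ESC library 1 and 0.00157 without NP library 1) and Sgce by 4.07 ± 0.24 (adjusted p = 3.65e-06). Between TET TKO cells and ESCs the log2 fold change was 2.03 ± 0.36 for Peg10 (adjusted p = 0.00494) and 1.91 ± 0.37 for Sgce (adjusted p = 0.00715), not called by edgeR. DESeq2 called both, and edgeR called Peg10 with a block for replicate number (adjusted p = 0.000918). Peg10 exceeded Sgce 117 to 195 times in ESCs, 43.6 to 53.7 times in NPs and 105 to 368 times in TET TKO cells.

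Mest, a mesoderm-specific transcript also on chromosome 6, stood at 17.3, 18.3 and 14.0 RPKM in ESCs, at 108, 146 and 80.6 in NPs and at 30.6, 52.7 and 15.4 in TET TKO cells. NPs lay above ESCs throughout, and TET TKO library 3 lay within the ESC range. Mest rose by 2.74 ± 0.22 in NPs (adjusted p = 1.63e-05), and its log2 fold change in TET TKO cells was 0.87 ± 0.38 (adjusted p = 0.116). Copg2 on the opposite strand shares 23.1% of the exon bases of Mest. The stretch before an internal Mest start is printed because it holds 2 of the hexamers named above. A stretch of Zdbf2, at chr1:63200108-63200312, holds 3 and is not printed. The Mest stretch lies at chr6:30737800-30738049 on the plus strand, inside the gene but outside its exons, and has 14 CpGs.
Mest: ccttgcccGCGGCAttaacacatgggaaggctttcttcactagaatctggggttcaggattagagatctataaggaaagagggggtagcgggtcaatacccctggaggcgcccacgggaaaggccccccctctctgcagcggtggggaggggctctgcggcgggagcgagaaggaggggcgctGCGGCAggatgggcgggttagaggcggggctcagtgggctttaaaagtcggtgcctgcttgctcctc

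Across all promoters, CpGs and the hexamer were counted in the 300 bases around each start. Windows were matched by symbol to 26 of the 35 imprinted genes, with 40 windows in all since some genes have several starts, and not to Peg13, Cdkn1c, Peg10, H19, Kcnq1, Trappc9, Rtl1, Impact and Sgce. The hexamer was present in 10 of these 40 windows (25.0%), from 9 genes, and in 11.6% of the 32851 windows of all genes. At least 2 hexamers were present in 3 of the 40 and in 1.53% of all windows. The median ratio of observed to expected CpGs was 0.591 in the windows of imprinted genes and 0.384 in all windows. Among windows with a ratio of at least 0.6, the hexamer was present in 8 of 19 and in 24.3% of 11765. Several windows of a gene overlap, so these counts describe windows and not independent genes.

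**Figure D4:**
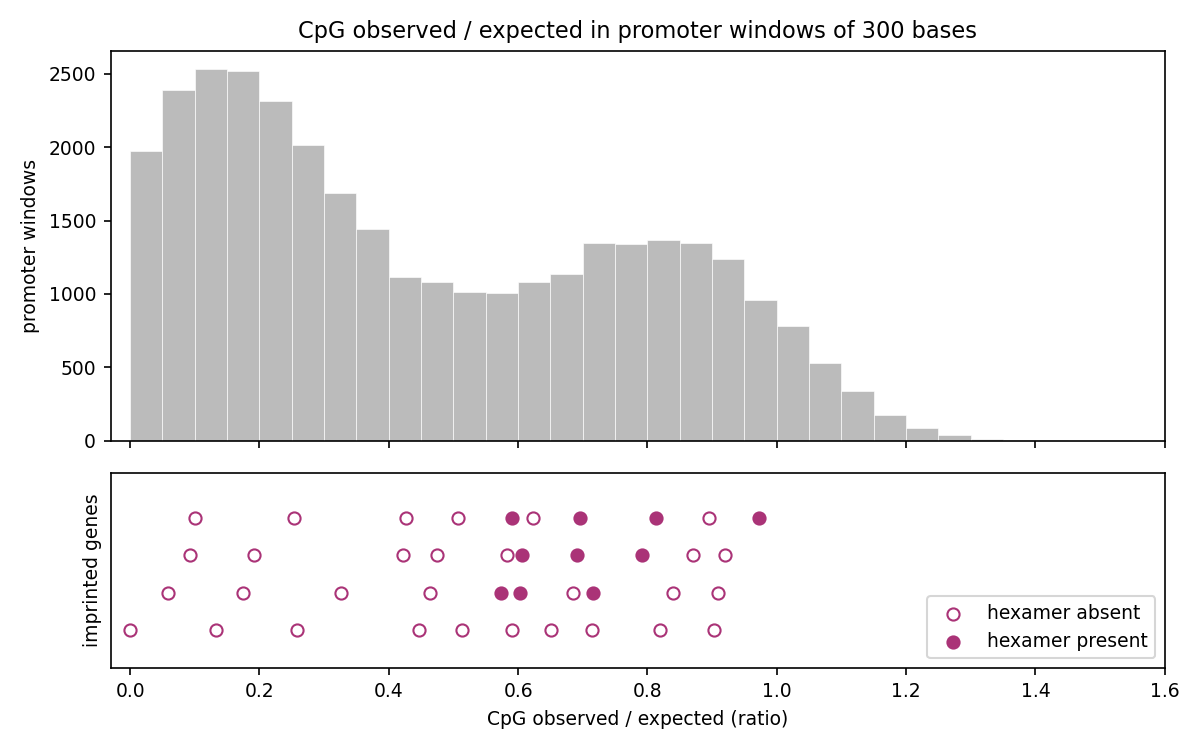
Ratio of observed to expected CpGs in promoter windows of 300 bases, as a histogram of all 32851 windows (top) and as points for the 40 windows of imprinted genes (bottom, height without meaning); filled points hold the hexamer. The filled points lie between 0.574 and 0.973, while open points spread over the whole range from 0 upwards.

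Several paternally expressed genes outside the large clusters rose in NPs. Plagl1, a zinc finger regulator of growth, stood at 1.02, 1.01 and 0.525 RPKM in ESCs, at 18.03, 29.9 and 35.6 in NPs and at 1.39, 2.45 and 1.77 in TET TKO cells. Nnat, a small neuronal membrane protein that sits in an intron of Blcap, stood at 1.72, 1.65 and 1.40 RPKM in ESCs, at 31.6, 36.0 and 89.4 in NPs and at 4.44, 3.95 and 1.95 in TET TKO cells. Peg13, a non-coding RNA of brain in an intron of Trappc9, stood at 0.805, 0.998 and 0.757 RPKM in ESCs, at 5.86, 5.61 and 6.42 in NPs and at 0.958, 1.95 and 0.643 in TET TKO cells. Every NP library exceeded every ESC library for these 3 genes, and for Plagl1 and Nnat so did every TET TKO library. Plagl1 rose by 5.02 ± 0.36 (adjusted p = 9.24e-06), Nnat by 5.04 ± 0.46 (adjusted p = 3.18e-05) and Peg13 by 2.79 ± 0.19 (adjusted p = 7.25e-06) in NPs. The rise of Nnat was 4.38 without NP library 3. In the other comparison, of TET TKO cells, log2 fold changes were 1.01 ± 0.32 for Plagl1 (adjusted p = 0.0428), 0.99 ± 0.33 for Nnat (adjusted p = 0.0537) and 0.35 ± 0.40 for Peg13 (adjusted p = 0.536).

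Impact, Zdbf2, Trappc9, Zrsr1 and Inpp5f were not called in either comparison. Impact stood at 49.6, 56.3 and 47.5 RPKM in ESCs, at 29.3, 32.1 and 38.1 in NPs and at 52.3, 70.7 and 50.5 in TET TKO cells. Zdbf2, a gene of hypothalamic growth control, stood at 15.2, 15.9 and 13.5 RPKM in ESCs, at 13.6, 10.2 and 13.4 in NPs and at 12.6, 18.1 and 8.56 in TET TKO cells. Impact was below ESCs in each NP library with a log2 fold change of -0.64 ± 0.14 (adjusted p = 0.00335), and Zdbf2 overlapped ESCs in both groups. Trappc9, a trafficking subunit around Peg13, stood at 6.17, 6.32 and 7.30 RPKM in ESCs, at 11.6, 8.62 and 6.52 in NPs and at 8.84, 5.37 and 9.86 in TET TKO cells. Zrsr1, a splicing factor gene inside Commd1, stood at 6.54, 7.31 and 5.53 RPKM in ESCs, at 4.03, 7.58 and 6.19 in NPs and at 8.17, 9.62 and 8.92 in TET TKO cells. Inpp5f, a phosphoinositide phosphatase, stood at 4.43, 4.12 and 4.82 RPKM in ESCs, at 7.73, 7.51 and 9.47 in NPs and at 3.95, 3.99 and 4.08 in TET TKO cells. Inpp5f was above ESCs in every NP library with a log2 fold change of 0.88 ± 0.14 (adjusted p = 0.000769), short of 3-fold, while Trappc9 and Zrsr1 overlapped ESCs in NPs.

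Gnas, which encodes the stimulatory G protein alpha subunit, needs a reservation on counting. It stood at 0.357, 0.389 and 0.291 RPKM in ESCs, at 1.37, 1.24 and 1.06 in NPs and at 0.297, 0.183 and 0.170 in TET TKO cells. It was above ESCs in every NP library and rose by 1.80 ± 0.22 (adjusted p = 0.000147, and 0.00138 without ESC library 1). However, Gm20721, a model on the opposite strand, shares 1469 of its 1484 exon bases with exons of Gnas, spread from position 174330319 to position 174346712 of chromosome 2 near the 3′ end of Gnas at 174346744, and reads that overlap exons of 2 genes are by default given to neither. Gm20721 had 1 count over all 9 libraries. Reads that fall on the shared bases are thus missing from the level of Gnas given here, and how many they are was not tested.

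The same reservation was examined for every member. Exon bases shared with another gene were found for 18 of the 35, for 15 of them with a gene on the opposite strand, and no member shared over 50%. After Snrpn (34.1%), the largest shares were 30.7% for Cdkn1c, 23.1% for Mest, 22% for Gnas and 14.8% for Usp29. Reads were counted without regard to strand, so outside such shared bases a read from an antisense RNA that falls on a gene's exon cannot be told apart from that gene's own.

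The libraries of a group differed among themselves in imprinted genes. Among genes at 1 RPKM or more in each library of the group, the median ratio of the highest to the lowest library was 1.24 for 23 imprinted genes and 1.16 for all genes in ESCs. It was 1.65 for 29 imprinted genes and 1.36 for all genes in NPs, and 2.07 for 23 imprinted genes and 1.34 for all genes in TET TKO cells. A ratio above 2 was found for 3 imprinted genes in ESCs and 2.46% of all genes, 6 in NPs and 10.4% of all genes, and 12 in TET TKO cells and 10.2% of all genes. Among these genes H19 and Igf2 had the largest ratios in each group, 3.14 and 3.68 in ESCs, 5.49 and 4.22 in NPs and 3.84 and 3.46 in TET TKO cells. Below that level ratios were larger for some, such as 7.63 for Slc22a18 in NPs and 5.82 for Dlk1 in TET TKO cells. Library 2 of the TET TKO group was the highest for 15 of the 23 imprinted genes and for 35.9% of all genes. The median biological coefficient of variation in the TET TKO comparison was 0.262 for imprinted genes and 0.182 for all genes, and whether these differ was not tested.

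**Figure D5:**
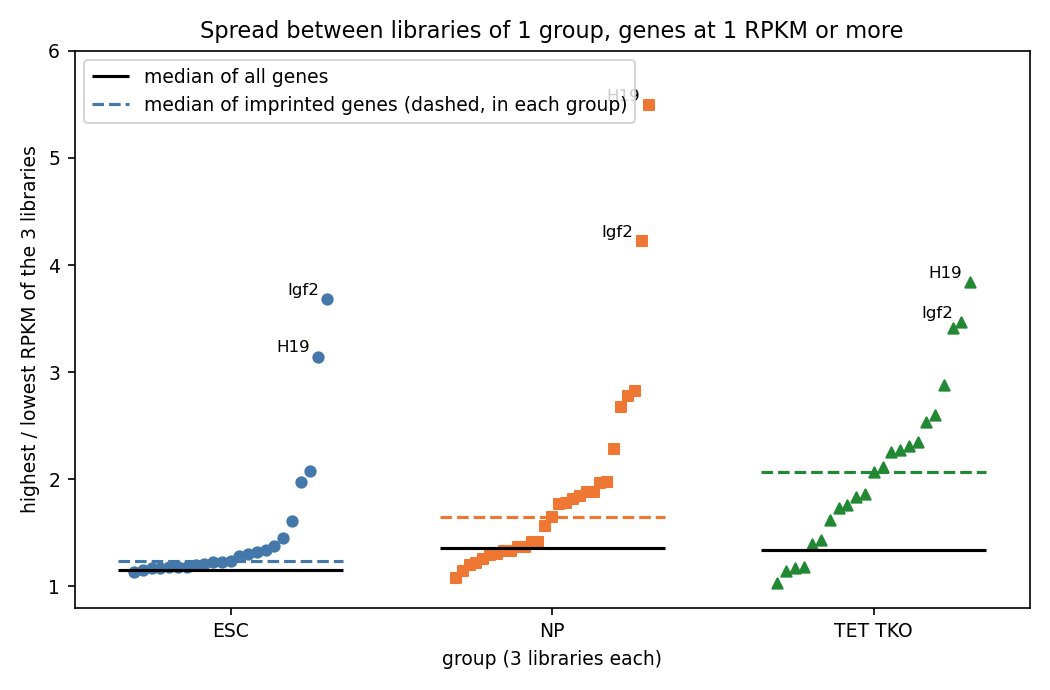
Highest over lowest RPKM among the 3 libraries of each group, for imprinted genes at 1 RPKM or more in each library; points are genes in increasing order, the solid black line is the median of all genes and the dashed line the median of the imprinted genes. The dashed line lies at 1.24 for ESCs, 1.65 for NPs and 2.07 for TET TKO cells, and H19 and Igf2 are the uppermost points of each group, with Mest close below in TET TKO cells.

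Factors that establish or guard imprints were followed as a list of 12 genes. In NPs 5 fell, against 9.99% of all genes, and the other 7 were not called, with a median log2 fold change of -1.003. Zfp57 stood at 167, 180 and 134 RPKM in ESCs and at 10.5, 14.0 and 11.2 in NPs, a fall of 3.77 ± 0.17 on the log2 scale. Dnmt3l, a cofactor of de novo methylation, fell by 8.93 ± 0.40, Dppa3, a protector of maternal methylation, fell by 4.59 ± 0.49, and Dnmt3b, a de novo methyltransferase, fell by 3.24 ± 0.18. The remaining gene that fell was Trim28. Of these 5, Dnmt3l and Dppa3 were below 1 RPKM in every NP library, were tested only through ESCs and had to lie lower. In TET TKO cells the 12 genes were below the limits for a call by edgeR, 6 had an unadjusted p under 0.05, against 45% of all genes, and the median was -0.21. Values of 4 of them, those with an adjusted p under 0.05 (against 33.6% of all genes), were chosen after they were seen. Dppa3, at 59.2, 77.9 and 130 RPKM against 6.32, 5.44 and 12.9 in ESCs, had a log2 fold change of 3.31 ± 0.41 and an adjusted p of 0.00133, and Zfp57, at 110, 130 and 69.6 RPKM, one of -0.76 ± 0.22 (adjusted p = 0.0331). That of Zfp445 was -0.69 ± 0.13 (adjusted p = 0.00664) and that of Trim28 was -0.65 ± 0.16 (adjusted p = 0.018).

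A list of 35 other genes of the same domains was followed in the same way. In NPs 3 of the 23 tested rose, against 12.4% of all genes, and 2 fell, against 9.99%, shares near those of all genes, with a median log2 fold change of 0.52. Those that rose were Casd1 and Ppp1r9a, by 2.43 ± 0.14 and 1.62 ± 0.15, and Asb4, by 4.25 ± 0.65, all beside Peg10 and Sgce, with Asb4 tested only through NPs. Those that fell were Cobl and Ddc beside Grb10. Of 20 tested in TET TKO cells (0.84% of all genes rose and 1.31% fell) 1 rose, Atp10a, a lipid flippase of the Snrpn domain, at 1.37, 1.39 and 1.91 RPKM in ESCs and 10.9, 8.94 and 11.7 in TET TKO cells. Every TET TKO library was above ESCs, and Atp10a rose by 2.63 ± 0.18 (adjusted p = 0.000145). Cobl fell by 1.605 ± 0.11, and the median over the list was -0.06.

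Within 200 kb of the imprinted genes lay 394 other genes. In NPs 94 of them were tested, 9 rose, against 12.4% of all genes, and 13 fell, against 9.99%, and their median log2 fold change was 0.03, the same as that of all genes. Among those called, the largest fitted rises were those of Gm16574 and Gm7162, which lie within the span of Airn, and of Lsp1 beside H19. All were below 1 RPKM in every ESC library and were tested only through NPs, so this order rests on ESC levels near 0. Lsp1, a leukocyte actin-binding protein, stood at 0.127, 0.142 and 0.0629 RPKM in ESCs and at 1.57, 3.11 and 0.626 in NPs, highest in NP library 2 as H19 was. Gm16574 and Gm7162 reached at most 0.0918 RPKM in ESCs and stood at 0.567 to 2.23 in NPs. The largest fitted falls among those called were those of Platr12 near Zdbf2, Tspan32os near Ascl2 and Gm34081 near Dlk1, all at most 0.0903 RPKM in NPs. These were tested only through ESCs, so their order rests on NP levels near 0. In TET TKO cells 80 were tested, 0 rose, against 0.84% of all genes, and 1, Cobl, fell, against 1.31%, with a median of -0.04. On chromosome 7, which holds 16 of the imprinted genes, the median over all genes tested was -0.06 in NPs and -0.12 in TET TKO cells, while that of its imprinted genes was 2.23 and -0.03.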

How the data were processed

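Reads were 50 bases long, single-end, from stranded mRNA libraries; per the file headers and the notes the authors deposited, raw counts per gene came from featureCounts 1.6.2 run without regard to strand on Ensembl 89 exons (GRCm38), after Trimmomatic 0.38 and STAR 2.6.1b. The series has 24 samples, of which the 9 RNA-Seq libraries were used, each with 51912 genes. Counts were scaled by TMM over the 9 libraries for RPKM, and 3 against 3 libraries were fitted with edgeR 4.0.16 (quasi-likelihood F-test, Benjamini-Hochberg adjustment over all genes tested) in R 4.3.3. The SE is the absolute log2 fold change over the square root of F. Alternatives were library sizes alone, DESeq2 1.42.0, filters of at least 1 count or of 10 counts in every library, 1 fit of all 3 groups, a replicate block, other thresholds, thinned TET TKO counts and each library left out. Members and lists were chosen with earlier results of these data known. All 35 members are accounted for, with values in every library for those called and the most abundant of each domain, and values of at most 4 called genes of each other list and 3 neighbours in each direction within 200 kb. Values of other members were added after they were seen.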

Additional observations from a re-analysis of the deposited data

How the results depend on the processing

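For NPs against ESCs, the 18 imprinted genes called ranged from 15 to 19 over all alternatives except an adjusted p under 0.05 without a fold limit, which gave 24. With at least 10 counts in every library Ascl2, Airn and Slc22a18 could not be tested. All genes called numbered 5281 with at least 1 count and 9656 at an adjusted p under 0.05. For TET TKO cells, the imprinted genes called were 5 by DESeq2, 5 with at least 1 count, 1 with all 3 groups in 1 fit, 10 at an adjusted p under 0.05, and 0 to 2 with a library left out. All genes called were 930 by DESeq2, 1263 with at least 1 count, 4720 at an adjusted p under 0.05 and 50 to 297 with a library left out. With the replicate block 3 imprinted genes (H19, Peg10 and Grb10) and 600 genes were called and the log2 fold change of Ndn was 0.002332. Deviations of libraries with the same number correlated across genes at -0.06, 0.01 and -0.12 between ESCs and NPs and at -0.08, 0.31 and 0.21 between ESCs and TET TKO cells, and whether the numbers pair the samples is not stated. In TET TKO cells Ndn was at 0.111 with at least 1 count, 0.03433 with at least 10 counts, 0.007708 with all 3 groups in 1 fit and 0.0347 with counts thinned to the ESC depth, and Phlda2 at 0.06122 with at least 1 count, against values just below 0 as reported. With a library left out, log2 fold changes in NPs ranged from -0.008971 to 0.5773 for Magel2, -0.0478 to 0.3088 for Meg3, -0.3288 to 0.06245 for Rian and -0.3583 to 0.06803 for Zrsr1. In TET TKO cells they ranged from -0.09255 to 0.9253 for Dlk1, -0.2363 to 0.03065 for Igf2r, -0.0934 to 0.1478 for Impact, -0.6675 to 0.06446 for Magel2, -0.09654 to 0.09481 for Ndn, -0.3626 to 0.199 for Phlda2 and -0.01048 to 0.4029 for Trappc9. The cause was not tested. Thinned TET TKO counts gave 297 genes called.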
